A study of Mus musculus with 2 samples.

Results

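The 10 genes described here, *Mucl1*, *Mucl2*, *Prol1*, *Scgb1b27*, *Crisp3*, *Smgc*, *Muc19*, *Bpifa2*, *Dcpp1* and *Aqp5*, are transcripts of the secretory cells of the salivary gland, and all 10 were found by symbol among the 50768 genes of the count files. They were chosen on their counts in these same libraries, both in droplets without a cell and in droplets with one, so that their differences between the strains are given as a description, with no test. Single-cell RNA sequencing (scRNAseq) was performed on 1 library from NOD/ShiLtJ mice, an inbred strain that develops diabetes and a Sjögren's-like disease of the salivary glands, and 1 from outbred CD1 control mice. All mice were untreated females aged 20 weeks, and each library pooled the submandibular glands of several mice together with the adjacent sublingual glands. The methods give 4 mice per pool and the sample labels 3, and the same sources name collagenase/hyaluronidase with dispase, or Liberase with dispase, as the enzymes. In both libraries, cells carrying EpCAM, a surface protein of epithelial cells, or Ter119, a surface protein of red cells, were removed with beads, and dead cells were removed as well. The acinar cells that make these transcripts are epithelial and were therefore depleted before loading, in both strains. With 1 library per strain there was no replicate, and every interval below covers counting error at 95%, taking UMIs as independent, and nothing else.

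Saliva is made by acini, clusters of secretory cells that fill with granules of mucins and other salivary proteins and empty them into a duct. A few secretory genes make up much of the mRNA of such a cell, and cells can burst during dissociation. The RNA of broken cells floats in the suspension and is captured with every droplet, whether or not the droplet holds a cell. In the mouse, the submandibular acini are seromucous, the sublingual acini are mucous with serous demilunes at their ends, and the granular ducts of the submandibular gland make kallikreins and growth factors under androgen control.

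The counts are of unique molecular identifiers (UMIs), tags that let each captured RNA molecule be counted once, and levels are UMIs per 1000000 UMIs of the same droplets (CPM), with no correction for gene length. The NOD library held 52790319 UMIs and the CD1 library 56483149. Barcodes with 10 to 100 UMIs are called empty droplets here, and there were 64931 in NOD with 4899181 UMIs and 70666 in CD1 with 3370431 UMIs. The median empty droplet held 79 UMIs in NOD and 47 in CD1. Barcodes with at least 500 UMIs, 7998 in NOD and 8376 in CD1, were placed in 1 of 6 lineages where at least 3 UMIs came from lineage markers and at least 75% of these from 1 lineage, which placed 5789 in NOD and 6682 in CD1. The 2 libraries shared 24 barcode sequences among those with at least 500 UMIs and 1299 among the empty droplets.

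RefSeq promoters on GRCm38.p6, 250 bases before to 50 bases after the annotated start, were at hand for 8 of the 10 genes. *Mucl1*, which RefSeq lists as a transcribed pseudogene, and *Muc19* had no entry. The letters TATA on the gene's own strand, starting 40 to 20 bases before the start, stood in 6 of these 8 promoters, *Mucl2*, *Prol1*, *Crisp3*, *Smgc*, *Bpifa2* and *Dcpp1*, and in 5.81% of all 32851 promoters of the table. The opposite strand was not searched, and overlapping matches were kept. The promoters of *Scgb1b27* and *Aqp5* held no match, and the *Aqp5* window differed from the others in its base composition, with 79.7% G or C and 46 CpG against 0 to 6 CpG in the other 7 and a median of 7 over all promoters. A match of these letters is a description of the window and not a binding site. The following 4 promoters belong to the genes that mark the range of the results, with the matched letters in capitals. They are *Mucl2*, the member with the most UMIs, at chr15:103899263-103899562 on the minus strand, *Smgc*, with the lowest point estimate of the ratio, at chr15:91838078-91838377 on the plus strand, *Crisp3*, the transcript of the duct-marker barcodes, at chr17:40242239-40242538 on the minus strand, and *Bpifa2*, the gene with more UMIs in NOD, at chr2:154008026-154008325 on the plus strand.
Mucl2: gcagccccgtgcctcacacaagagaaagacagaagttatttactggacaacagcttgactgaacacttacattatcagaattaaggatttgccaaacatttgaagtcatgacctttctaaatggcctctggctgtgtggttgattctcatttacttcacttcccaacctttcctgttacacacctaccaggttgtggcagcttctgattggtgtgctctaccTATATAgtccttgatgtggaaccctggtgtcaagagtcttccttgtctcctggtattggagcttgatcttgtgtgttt
Smgc: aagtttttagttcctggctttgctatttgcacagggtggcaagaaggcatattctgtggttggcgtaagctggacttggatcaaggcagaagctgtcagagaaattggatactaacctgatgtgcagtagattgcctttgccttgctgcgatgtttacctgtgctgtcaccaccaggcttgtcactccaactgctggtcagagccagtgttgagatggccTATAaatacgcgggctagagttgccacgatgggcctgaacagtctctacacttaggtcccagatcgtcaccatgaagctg
Crisp3: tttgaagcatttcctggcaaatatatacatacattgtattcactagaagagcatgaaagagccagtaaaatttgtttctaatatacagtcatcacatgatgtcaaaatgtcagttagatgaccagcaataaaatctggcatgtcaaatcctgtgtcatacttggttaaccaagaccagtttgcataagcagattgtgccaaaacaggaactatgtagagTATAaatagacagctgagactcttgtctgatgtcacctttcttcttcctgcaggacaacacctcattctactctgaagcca
Bpifa2: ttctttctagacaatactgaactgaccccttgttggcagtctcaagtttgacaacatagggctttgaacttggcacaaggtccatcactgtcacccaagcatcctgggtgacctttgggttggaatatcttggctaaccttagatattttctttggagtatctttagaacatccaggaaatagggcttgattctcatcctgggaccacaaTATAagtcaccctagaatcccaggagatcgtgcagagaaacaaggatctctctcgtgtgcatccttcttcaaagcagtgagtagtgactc

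In the empty droplets, the 10 transcripts together were far lower in NOD than in CD1. They gave 4884 of the 4899181 UMIs in NOD, 997 CPM, and 61812 of 3370431 in CD1, 18339 CPM. NOD was thus 18.4-fold lower (interval 17.9 to 18.9), a log2 ratio of NOD over CD1 of -4.20 (-4.24 to -4.16). An empty droplet held on average 0.0752 member UMIs in NOD and 0.875 in CD1. At least 1 member UMI was found in 5.49% of NOD empty droplets and in 42.9% of those of CD1. After each droplet with at least 30 UMIs was thinned to 30 UMIs, which left out 3448 in NOD and 6853 in CD1, these shares were 2.61% and 34.6%. In a bulk pool of free RNA such as this, fewer acinar cells in the gland, less of each transcript per cell and less breakage of the cells cannot be told apart.

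*Mucl2*, also known as *Spt1*, encodes a small mucin-like salivary protein and was the member with the most UMIs in both strains. It had 2931 UMIs in NOD (598 CPM) and 33592 in CD1 (9967 CPM), a log2 ratio of -4.06 (-4.11 to -4.00). By UMIs it ranked 6th of all genes in the CD1 empty droplets and 160th in those of NOD. *Mucl1*, a related gene, had 786 UMIs in NOD (160 CPM) and 10545 in CD1 (3129 CPM), a log2 ratio of -4.29 (-4.39 to -4.18). The annotated transcripts of *Mucl1* and *Mucl2* share 1 stretch of 50 bases, so that few reads could be assigned to both.

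*Prol1*, also known as *Muc10*, encodes a mucin of the submandibular acini. It had 449 UMIs in NOD (91.6 CPM) and 8516 in CD1 (2527 CPM), and its log2 ratio of -4.78 (-4.93 to -4.65) lay below those of *Mucl1* and *Mucl2*, with intervals that did not overlap. *Scgb1b27* encodes the alpha subunit of an androgen-binding protein, a secretoglobin of saliva. It had 491 UMIs in NOD (100 CPM) and 7369 in CD1 (2186 CPM), a log2 ratio of -4.45 (-4.58 to -4.32). By UMIs these 4 transcripts, *Mucl2*, *Mucl1*, *Prol1* and *Scgb1b27*, ranked among the first 36 genes of the CD1 empty droplets and between 160th and 1599th in NOD.

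*Crisp3*, a cysteine-rich secretory protein, was reduced less. It had 166 UMIs in NOD (33.9 CPM) and 1218 in CD1 (361 CPM), a log2 ratio of -3.41 (-3.66 to -3.18). Its interval lay apart from those of the 4 members with more UMIs, and 2.41% of its 50-base stretches also stand in *Crisp1*. *Dcpp1* encodes a protein of the serous demilunes of the sublingual gland. It had 36 UMIs in NOD (7.35 CPM) and 124 in CD1 (36.8 CPM), and its log2 ratio of -2.32 (-2.90 to -1.78) was the smallest reduction among the 9 lower members and turned to 1.06 when the library was scaled by its duct kallikreins. Of the 50-base stretches in its transcript, 46.5% also stand in *Dcpp2* or *Dcpp3*, so that reads of these 3 genes could not be fully separated and its counts are uncertain. In both strains its UMIs were clumped, with up to 7 in 1 NOD droplet and 14 in 1 CD1 droplet.

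*Smgc*, *Muc19* and *Aqp5* had few UMIs in NOD. *Smgc*, a secreted glycoprotein made from the first exons of the *Muc19* locus, had 6 UMIs in NOD (1.22 CPM) and 370 in CD1 (110 CPM), a log2 ratio of -6.49 (-7.94 to -5.35). *Muc19*, the gel-forming mucin of the sublingual gland, had 2 UMIs in NOD and 51 in CD1, a ratio of CD1 over NOD of 37.1 with an interval of 9.75 to 314. *Aqp5*, the water channel of the acinar surface and a gene of all acini, had 1 UMI in NOD and 25 in CD1, a ratio of 36.3 with an interval of 5.95 to 1492. *Smgc* and *Muc19* overlap in the annotation, and 1.41% of the 50-base stretches of *Smgc* also stand in *Muc19*. At these counts the order of *Smgc*, *Muc19* and *Aqp5* among each other is not resolved, since their intervals overlap.

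*Bpifa2*, the parotid secretory protein, was the only one of the 10 with more UMIs in NOD. It had 16 UMIs in NOD, in 9 droplets of which 1 held 6, and 2 UMIs in CD1, a log2 ratio of 2.46 with an interval of 0.37 to 5.62. With 18 UMIs over both libraries it lay under the minimum of 20 UMIs set for comparing genes in the empty droplets. Over all barcodes it had few UMIs as well, with 0.172% of member UMIs in NOD and 0.0230% in CD1.

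**Figure D1:**
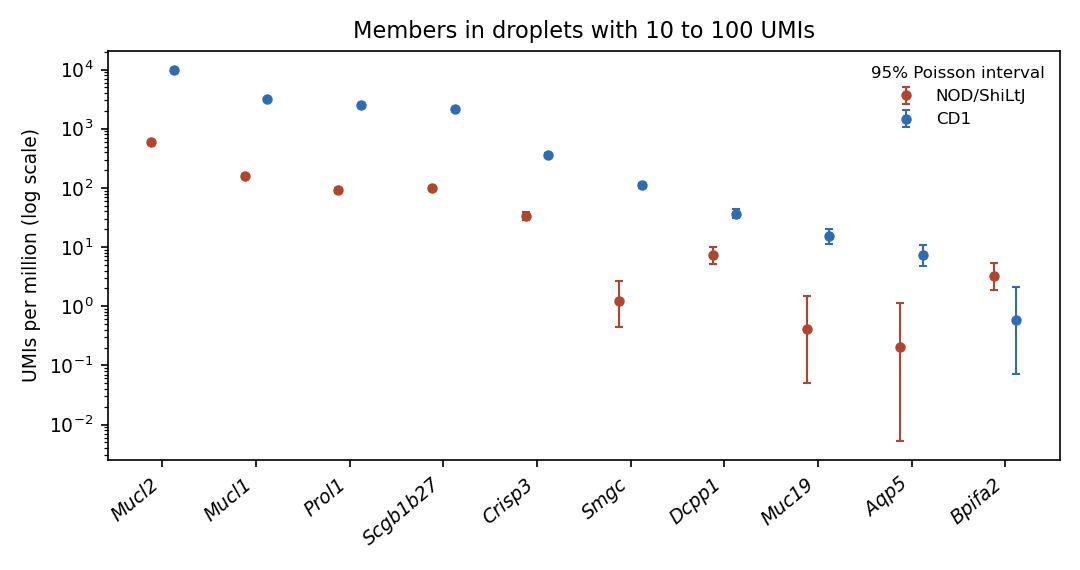
Level of each of the 10 transcripts in droplets with 10 to 100 UMIs, in CPM on a log scale, in the NOD/ShiLtJ and the CD1 library (points, with 95% Poisson intervals that cover counting error only). Genes are ordered by their CD1 level, from *Mucl2* at 9967 CPM, and in 9 of 10 the NOD point lies below the CD1 point, with *Bpifa2* as the exception.

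Of the 13264 genes with at least 20 UMIs in the empty droplets of both libraries together, 17.4% were at least 2-fold lower in NOD and 10.2% at least 2-fold higher. All 9 members that reached this minimum were at least 2-fold lower. When the libraries were scaled by the duct kallikreins, 5 of them were. The share of all genes was not counted at that scaling, so the 17.4% is no background for the 5. The 9 members reached the minimum mostly through the CD1 droplets. The members had also been chosen with these values known, so the count of 9 is not support for a difference. The median log2 ratio was -4.45 over these 9 members and -0.04 over all genes tested. A reduction of at least 8-fold was seen in 8 of the 9 and in 1.33% of all genes tested. Among the 1112 genes with at least 1000 UMIs in the empty droplets, *Prol1* had the fourth lowest ratio, and *Scgb1b27*, *Mucl1*, *Mucl2* and *Crisp3* stood in places 6, 7, 8 and 12. The lowest ratio was that of *Gm53236*, a predicted gene with 649 UMIs in NOD and 24516 in CD1 (log2 -5.78), followed by *Car6*, *Scgb2b27*, *Prol1* and *Scgb2b26*. The 5 highest were *Gvin3* (log2 7.14), *Cd79b* (5.68), *Bank1* (4.83), *Klra1* (4.65) and *Cd3d* (4.57), of which *Cd79b* and *Bank1* are B-cell genes, *Cd3d* is a T-cell gene and *Klra1* is an NK-cell receptor.

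Other genes of the gland were read in the same droplets, in lists chosen with earlier results of these data known. The counts past 2-fold in these lists are therefore not support for a difference. Over all genes tested, the share at least 2-fold lower in NOD was 17.4%. Of 25 other salivary secreted genes, 22 were in the files and 8 had at least 20 UMIs, some of them only through the CD1 droplets. All 8 were at least 2-fold lower in NOD, with a median log2 ratio of -4.24. The leading ones were *Scgb2b27* (log2 -5.06) and *Scgb2b26* (log2 -4.55), secretoglobins that pair with *Scgb1b27*, *Car6* (log2 -5.66), the secreted carbonic anhydrase of saliva, and *Pip* (log2 -3.92), the prolactin-induced protein. Of 12 genes of the acinar programme, such as receptors and ion transporters, 5 reached the minimum and 3 were at least 2-fold lower, with a median of -1.02. Among these, *Slc12a2*, the chloride uptake transporter of acini, was at -2.82 and *Chrm3*, the muscarinic receptor, at -1.42, whereas *Kcnma1*, a potassium channel, was at -1.02 and *Galnt12*, an enzyme that starts mucin glycosylation, at -0.39 (-0.87 to 0.09).

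The duct kallikreins and growth factors, which duct cells rather than acini make, were lower in NOD as well. All 16 were at least 2-fold lower, with a median of -3.32, against 17.4% of all genes tested. Some of the 16 reached the minimum of 20 UMIs only through the CD1 droplets, so the count of 16 is not support for a difference. The sum of the 16 was 2125 CPM in CD1 and 204 CPM in NOD (log2 -3.38, -3.48 to -3.29). *Klk1* was at -3.62, *Klk1b26* at -2.80, *Klk1b9* at -3.36 and *Klk1b11* at -3.45. Scaled by the kallikreins instead of by all UMIs, the members were 1.77-fold lower in NOD, a log2 ratio of -0.82. Of the 9 epithelial keratin and adhesion genes, 5 reached the minimum and 3 were at least 2-fold lower, with *Krt18* at -3.25 and *Krt7* at -3.56 but *Epcam* at -0.15 (-0.69 to 0.40) and *Cdh1* at 0.65. Of RNA from other sources, none of the 3 red cell genes with at least 20 UMIs passed 2-fold in either direction, and hemoglobin *Hbb-bs* was at -0.27, *Hba-a1* at -0.53 and *Hbb-bt* at 0.45. *Alas2*, the heme synthesis enzyme of red cells, had 6 and 2 UMIs. The nuclear RNAs *Malat1* and *Neat1* were at 0.07 and -0.85, and *Malat1* held 9261 CPM in NOD and 8807 in CD1.

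**Figure D2:**
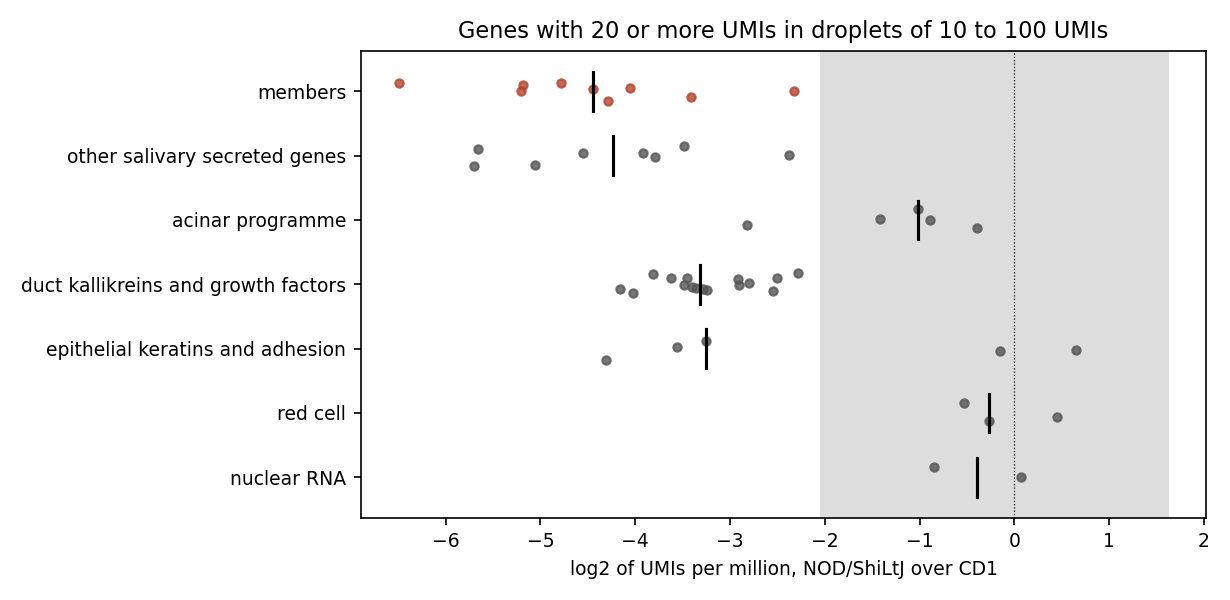
Log2 ratio of NOD/ShiLtJ over CD1 in droplets with 10 to 100 UMIs for the 9 members (red) and for the genes of 6 comparison lists (grey), each point a gene with at least 20 UMIs and each bar the median of its list. The shaded band spans the 5th to the 95th percentile of all genes tested, -2.04 to 1.62. All 9 members lie to its left, at a median of -4.45.

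The share of the members differed with the number of UMIs on a barcode, and it peaked at different depths in the strains. In CD1 it was 3703 CPM on barcodes with 1 to 9 UMIs, 18339 CPM at 10 to 100 UMIs, 13852 CPM between 100 and 500, 7595 CPM from 500 to below 1000 and 3067 CPM from 1000 to below 5000 UMIs. In NOD it was 684 CPM at 1 to 9 UMIs, 997 CPM at 10 to 100, 2165 CPM between 100 and 500, 2336 CPM from 500 to below 1000 and 1193 CPM from 1000 to below 5000 UMIs. The CD1 level thus peaked in the empty droplets and the NOD level on barcodes with 500 to below 1000 UMIs. The same range of UMIs need not hold the same kind of droplet in both strains. Empty droplets were most numerous at 80 to 89 UMIs in NOD (17753) and at 40 to 49 in CD1 (21259). Between 100 and 500 UMIs, the median barcode held 113 UMIs in NOD and 185 in CD1, with mitochondrial shares of 24.8% and 45.7%. The difference between the strains was 18.4-fold at 10 to 100 UMIs, 5.42-fold at 1 to 9 UMIs, 6.40-fold between 100 and 500, 3.25-fold from 500 to below 1000, 2.57-fold from 1000 to below 5000 and 2.65-fold from 5000 to below 10000 UMIs. At 10000 UMIs and above, it was 5.39-fold, with 360 CPM in NOD and 1939 CPM in CD1, where a single barcode held 7374 of the 45160 member UMIs. Just inside the upper limit of the empty droplets, at 90 to 100 UMIs, the levels were 1064 CPM in NOD and 16387 CPM in CD1, a 15.4-fold difference. Just inside the lower limit, at 10 to 19 UMIs, they were 315 and 4686 CPM, a 14.9-fold difference that rests on 11 NOD UMIs. Over the 9 steps between 10 and 100 UMIs, the difference ranged from 14.9-fold to 25.5-fold. Of all member UMIs of a library, 35.6% lay in empty droplets in CD1 and 14.2% in NOD, whereas the empty droplets held 5.97% and 9.28% of all UMIs.

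**Figure D3:**
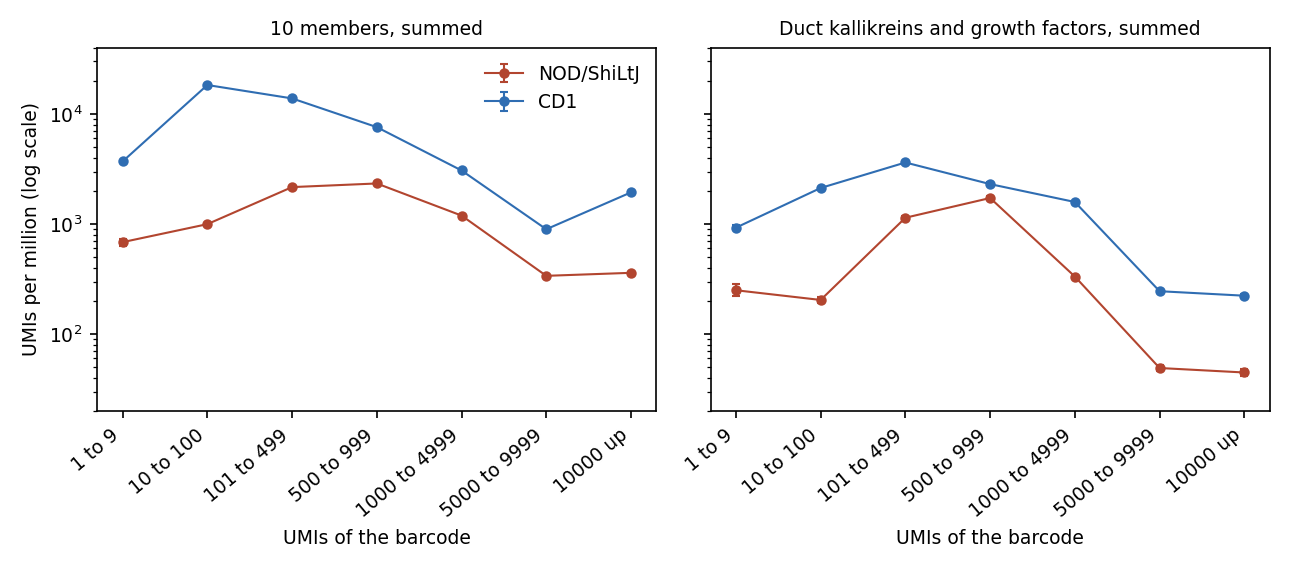
Summed level of the 10 members (left) and of 16 duct kallikreins and growth factors (right), in CPM on a log scale, by the number of UMIs on the barcode, with 95% Poisson intervals. The gap between CD1 and NOD/ShiLtJ is widest at 10 to 100 UMIs, 18.4-fold for the members and 10.4-fold for the kallikreins.

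On barcodes with a lineage, the difference between the strains was much smaller than in the empty droplets. Over the 5 non-epithelial lineages together, the members gave 453 CPM in NOD and 1222 CPM in CD1, a log2 ratio of -1.43 (-1.46 to -1.41). This sum mixes lineages at different shares, and without the myeloid barcodes, which made up 784 of the NOD and 3143 of the CD1 barcodes, the ratio was -0.01. Within single lineages, the members were lower in NOD in 5 of 6. B/plasma barcodes were the exception, and their ratio changed sign with the barcodes taken. *Cd3e*, *Cd79a*, *Csf1r*, *Cdh5* and *Dcn* were each highest in CPM in T/NK, B/plasma, myeloid, endothelial and stromal barcodes, respectively, in both libraries. These genes are among the markers that placed the barcodes, so this was largely fixed in advance and is no independent check.

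T/NK barcodes numbered 2992 in NOD and 518 in CD1, with medians of 6632 and 9258 UMIs. They held a mean of 0.979 member UMIs per barcode in NOD and 1.86 in CD1, at 128 and 174 CPM (log2 -0.44, -0.55 to -0.33). Endothelial barcodes, 1079 in NOD and 2887 in CD1, held 0.888 and 1.82 member UMIs per barcode, at 161 and 273 CPM (log2 -0.76, -0.86 to -0.66). A single endothelial barcode of NOD held 460 of the 958 member UMIs of that lineage, and without the 1% of non-epithelial barcodes richest in member UMIs the endothelial levels were 84.2 and 235 CPM, a log2 ratio of -1.48 (-1.62 to -1.35). With equal weight per barcode the endothelial ratio was -2.13, and at a 90% share of marker UMIs it was -1.73 (-1.88 to -1.58). Stromal barcodes were few, 87 and 47, and held 1.31 and 2.02 member UMIs per barcode (log2 -1.18, -1.59 to -0.77).

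Salivary proteins are not known products of these lineages. Compared with an empty droplet of the same library, a T/NK barcode held 13.0 times as many member UMIs in NOD and 2.13 times as many in CD1, and an endothelial barcode 11.8 and 2.08 times as many. The 11.8 includes the single NOD barcode with 460 of the 958 endothelial member UMIs. Without the richest 1% of non-epithelial barcodes, the NOD means were 0.898 per T/NK and 0.462 per endothelial barcode, against 0.0752 per empty droplet. Per UMI, the T/NK level was 12.9% of the empty-droplet level in NOD and 0.949% in CD1. After thinning to 500 UMIs, a member UMI was found on 5.11% of NOD and 9.46% of CD1 T/NK barcodes and on 3.99% and 14.0% of endothelial barcodes.

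Myeloid barcodes carried far more of the secretory transcripts than T/NK or endothelial barcodes did. They held a mean of 11.5 member UMIs per barcode in NOD and 15.6 in CD1, with medians of 2 and 4, at 1965 and 2424 CPM (log2 -0.30, -0.34 to -0.27). Per barcode this was 12.9 times the endothelial value in NOD and 8.58 times in CD1. The same order was found at matched depth. At 5000 to 10000 UMIs per barcode, myeloid barcodes held 10.4 and 11.5 member UMIs, and endothelial barcodes 0.583 and 1.55. Thinned to 500 UMIs, 33.4% of NOD and 45.6% of CD1 myeloid barcodes had a member UMI. Without the richest 1% of barcodes, the myeloid levels were 914 and 1404 CPM, a log2 ratio of -0.62. In NOD the myeloid level was 197% of that in the empty droplets (190 to 204), whereas in CD1 it was 13.2% (13.1 to 13.4). The NOD excess rested on the richest barcodes. Without the richest 1% of non-epithelial barcodes, the NOD myeloid level of 914 CPM lay below the 997 CPM of the NOD empty droplets. The CD1 level of 1404 CPM likewise lay below the 18339 CPM of the CD1 empty droplets.

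Macrophages of the gland carry the complement genes *C1qa*, *C1qb* and *C1qc*. Myeloid barcodes with at least 3 C1q UMIs held 11.5 member UMIs in NOD and 15.9 in CD1. The 40 NOD and 36 CD1 myeloid barcodes without a C1q UMI held 12.1 and 11.5, at median depths of 11752 and 5893 UMIs against 2891 and 6736. Per UMI, the level was 2082 CPM in NOD and 2427 CPM in CD1 with C1q, and 985 and 1344 CPM without it. The NOD level without C1q was near that of the NOD B/plasma barcodes, 929 CPM.

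B/plasma barcodes, 838 in NOD and 10 in CD1, held 5.64 and 5.90 member UMIs per barcode, at 929 and 560 CPM (log2 0.73, 0.36 to 1.13). The CD1 value rests on 10 barcodes with 59 member UMIs in all, and the median gene shifted by 0.25 between the strains in this lineage. When the 90% share of marker UMIs was asked of a barcode, the ratio was 0.12, and without the richest 1% of barcodes it was 0.26 (-0.12 to 0.65). Of the 105421 UMIs of the CD1 lineage, 59447 lay on 2 barcodes led by plasma-cell markers. On barcodes led by B-cell markers, 806 in NOD and 8 in CD1, the levels were 1005 and 1175 CPM and the ratio turned to -0.23 (-0.61 to 0.19). At 5000 to 10000 UMIs it was -0.11 (-0.58 to 0.40). The direction in this lineage is thus not resolved. In NOD, barcodes led by B-cell markers held 5.81 member UMIs each and the 31 led by plasma-cell markers 1.42. NOD B/plasma barcodes with a member UMI after thinning made up 26.0% (23.1 to 29.1), against 5.11% (4.35 to 5.96) for T/NK barcodes of the same library, at median depths of 5848 and 6632 UMIs.

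**Figure D4:**
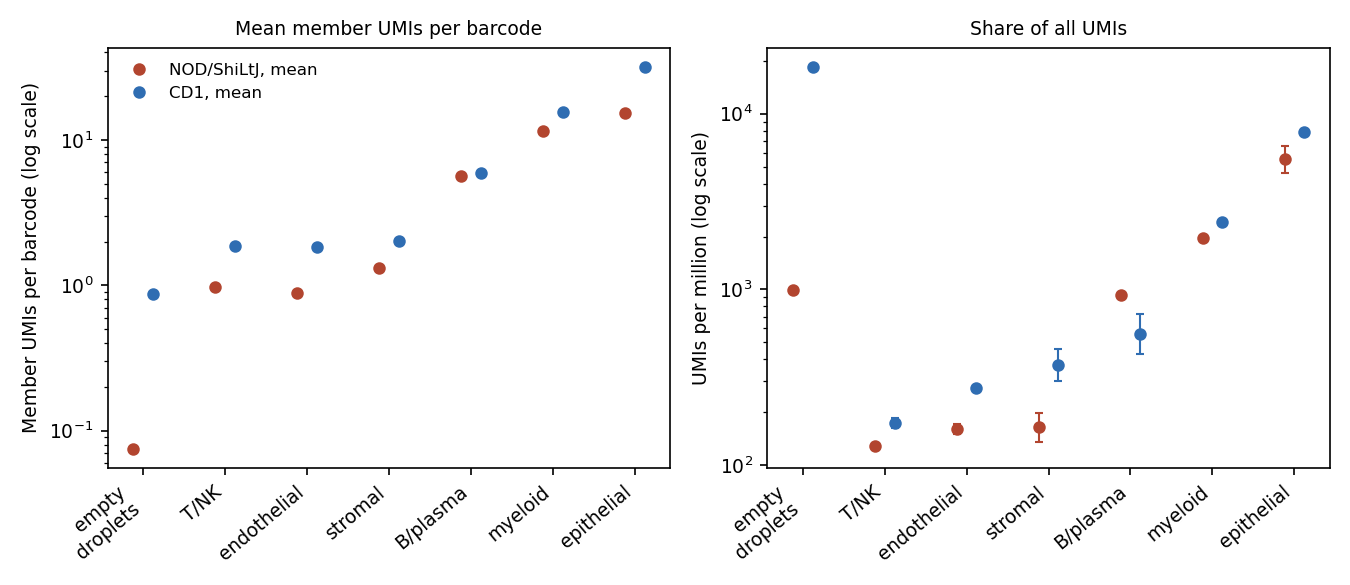
Mean number of member UMIs per barcode (left) and summed level in CPM with 95% Poisson intervals (right), both on log scales, in empty droplets and in 6 lineages of NOD/ShiLtJ (red) and CD1 (blue). In the plotted levels, the strains differ 18.4-fold in the empty droplets and by at most 2.27-fold in each lineage. With equal weight per barcode the endothelial difference was 4.39-fold, and at a 90% share of marker UMIs the epithelial difference was 5.52-fold. B/plasma, myeloid and epithelial barcodes hold more member UMIs than T/NK, endothelial and stromal ones.

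Epithelial barcodes were almost absent after the depletion, 9 in NOD and 77 in CD1. They were rich in duct genes. The kallikreins and growth factors made up 39472 CPM in NOD and 22757 CPM in CD1, and *Aqp5* had 0 UMIs in both strains. *Bhlha15*, the transcription factor of secretory cells, had 1 UMI in NOD and 0 in CD1. The members summed to 138 UMIs in NOD (5508 CPM) and 2449 in CD1 (7842 CPM), a log2 ratio of -0.51 (-0.77 to -0.26) that turned to 0.09 when every barcode was given equal weight and was -2.46 at a 90% share of marker UMIs and -1.02 at 6 marker UMIs. The median gene shifted by 0.51 between these barcodes. *Crisp3* alone made up 125 of the 138 UMIs in NOD (90.6%) and 1391 of 2449 in CD1 (56.8%), at 4989 and 4454 CPM (log2 0.16, -0.11 to 0.43), against 3.40% and 1.97% of member UMIs in the empty droplets. *Crisp3* thus went against its place among acinar transcripts, since its level was highest on barcodes rich in duct kallikreins. Without it, the epithelial barcodes held 13 member UMIs in NOD and 1058 in CD1 (log2 -2.71, -3.62 to -1.93), and the ratio in empty droplets was -4.22 instead of -4.20. *Prol1* and *Scgb1b27* had no UMI on the 9 NOD epithelial barcodes, and 418 and 103 on the 77 of CD1.

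The mix of the members also differed between the sets of barcodes, and did so in CD1 more than in NOD. In CD1, *Mucl1* gave 17.1% of member UMIs in empty droplets, 11.2% on endothelial barcodes and 5.10% on myeloid barcodes, and *Prol1* gave 13.8%, 21.5% and 26.8%. In NOD, *Mucl1* gave 16.1%, 12.7% and 15.7%, and *Prol1* 9.19%, 9.08% and 10.0%. *Mucl2* gave at least 47.8% of member UMIs in each of these 3 sets in either strain.

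The number of *Prol1* UMIs per *Mucl1* UMI put this in a single value. In CD1 it was 0.808 (0.785 to 0.831) in droplets with 10 to 100 UMIs, but 2.02 (1.81 to 2.27) on barcodes with 1 to 9 UMIs and 2.53 (2.39 to 2.69) on those between 100 and 500. It was 1.93 (1.75 to 2.14) on CD1 endothelial barcodes, 2.31 (1.80 to 2.96) on T/NK barcodes and 5.27 (5.05 to 5.50) on myeloid barcodes. The 1 to 9 UMI barcodes of CD1 were therefore closer in this ratio to endothelial and T/NK barcodes than to the droplets with 10 to 100 UMIs. Within the CD1 empty droplets the ratio was 0.969 at 10 to 19 UMIs, 0.621 at 20 to 29 and 0.730 at 30 to 39. It was 0.716 at 40 to 49, 0.779 at 50 to 59 and 0.963 at 60 to 69. From there it was 1.11 at 70 to 79, 1.13 at 80 to 89 and 0.969 at 90 to 100. In NOD the ratio was 0.571 (0.508 to 0.642) in empty droplets, 0.563 (0.401 to 0.784) at 1 to 9 UMIs, 0.528 (0.467 to 0.596) between 100 and 500, 0.713 (0.535 to 0.947) on endothelial barcodes, 0.639 (0.587 to 0.695) on myeloid barcodes, 0.477 (0.421 to 0.540) on B/plasma barcodes and 0.889 (0.769 to 1.03) on T/NK barcodes. In NOD the T/NK interval lay above that of the empty droplets, and the other 5 sets overlapped the empty droplets, although the B/plasma and myeloid intervals lay apart from each other. In CD1 none of the 5 other sets named overlapped the empty droplets.

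Which of the transcripts differed between the strains therefore depended on the droplets. In the empty droplets the 4 members with the most UMIs had log2 ratios between -4.78 and -4.06. On myeloid barcodes, *Prol1* was lower in NOD, with 902 UMIs (197 CPM) against 13168 (651 CPM) and a log2 ratio of -1.72 (-1.82 to -1.63), and *Scgb1b27* was at -0.68 (-0.77 to -0.59). Over all myeloid barcodes, *Mucl2* had nearly equal levels, 1169 and 1160 CPM (log2 0.01, -0.03 to 0.05). *Mucl1* was higher in NOD, 309 against 124 CPM (log2 1.32, 1.23 to 1.42). On myeloid barcodes with 5000 to 10000 UMIs, *Prol1* was at -1.70, *Scgb1b27* at -0.81, *Mucl2* at 0.34 (0.24 to 0.43) and *Mucl1* at 1.51. Leaving out the richest 1% of barcodes moved the summed myeloid ratio from -0.30 to -0.62. Whether the single-gene myeloid ratios rest on a few such barcodes was not tested. On T/NK barcodes *Prol1* was at -1.35, *Scgb1b27* at -0.67, *Mucl2* at -0.21 (-0.36 to -0.06) and *Mucl1* at 0.02 (-0.31 to 0.36), and the intervals of the last 2 overlapped. On endothelial barcodes *Prol1* was at -2.00 (-2.33 to -1.69) and *Scgb1b27* at -0.84, while *Mucl1* at -0.57 (-0.86 to -0.28) and *Mucl2* at -0.46 (-0.60 to -0.33) had intervals that overlapped. *Prol1* was the most reduced of the 4 in all 3 lineages and in the empty droplets.

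The rarer members had few UMIs on lineage barcodes. On myeloid barcodes *Smgc* had 9 UMIs in NOD and 215 in CD1 (log2 -2.43, -3.58 to -1.48), *Muc19* 4 and 34 (log2 -0.94, -2.90 to 0.54), and *Aqp5* 4 and 8 (log2 1.14, -1.04 to 3.04). *Dcpp1* had 108 and 419 (log2 0.19, -0.13 to 0.50). *Bpifa2* had 20 and 28, which was higher per UMI in NOD (log2 1.66, 0.75 to 2.54), as in the empty droplets. This direction was not resolved in other sets. *Bpifa2* was at 1.62 (-0.47 to 4.78) in droplets with 50 to 100 UMIs and at 0.36 (-0.43 to 1.15) over all non-epithelial barcodes. On barcodes with 10000 UMIs and above it was at -0.68 (-1.86 to 0.42).

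**Figure D5:**
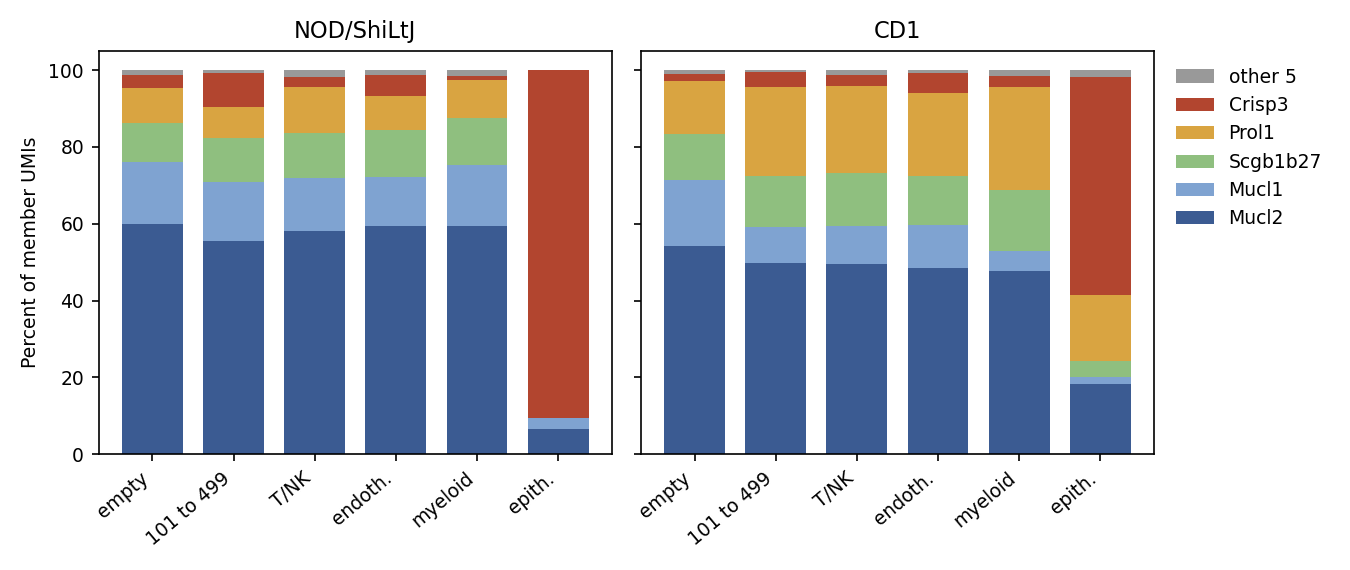
Share of each member in the summed member UMIs, in percent, for empty droplets, barcodes between 100 and 500 UMIs and 4 lineages, in NOD/ShiLtJ (left) and CD1 (right). *Mucl2* is the largest share in every plotted set but the epithelial barcodes, where *Crisp3* holds 90.6% in NOD and 56.8% in CD1, and in CD1 the share of *Prol1* grows from 13.8% in empty droplets to 26.8% on myeloid barcodes.

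Some barcodes were rich in these transcripts. Members made up at least 10% of the UMIs on 8 NOD and 46 CD1 barcodes with at least 500 UMIs, and at least 1% on 161 and 411. The 46 CD1 barcodes held 34414 member UMIs, 38.2% of those on all CD1 barcodes with at least 500 UMIs, and the 8 NOD barcodes held 3295, or 13.9%. The richest NOD barcode had 1317 member UMIs of 2024 (65.1%) over 240 genes, and the richest CD1 barcode 7374 of 19598 (37.6%) over 431 genes, and neither had a lineage. Of the 46 CD1 barcodes, 33 had no lineage, 10 were myeloid, 2 endothelial and 1 epithelial, and of the 8 in NOD, 4 had no lineage, 3 were myeloid and 1 B/plasma. *Epcam* was found on 2, *Aqp5* on 1 and *Bhlha15* on 3 of the 46, and none of these 3 genes on the 8. The median share of mitochondrial UMIs was 35.3% on the 46 and 28.8% on the 8. The mix on the 46 was 15.0% *Mucl1*, 54.3% *Mucl2*, 16.0% *Prol1* and 13.4% *Scgb1b27*, and on the 8 it was 14.7%, 60.8%, 9.04% and 15.5%. *Crisp3* had 416 UMIs on the 46 barcodes and 0 on the 8, but on the 24 NOD and 85 CD1 barcodes with at least 5% member UMIs it made up 3.58% and 1.23% of them.

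In the empty droplets, too, the transcripts came in clumps. The variance of the number of member UMIs per droplet was 2.47 times the mean in NOD and 2.71 times in CD1, where independent single molecules in droplets of equal size would give about 1. In the CD1 droplets it grew from 1.67 at 30 to 39 UMIs to 6.08 at 90 to 100 UMIs. The share of mitochondrial UMIs in these CD1 droplets rose from 5.10% to 21.1%. In NOD the variance over the mean was 2.09 at 30 to 39 UMIs, on 18 member UMIs, and 3.66 at 90 to 100 UMIs. The mitochondrial share there was 4.21% and 3.67%. The source of the clumps was not tested. By gene, the variance over the mean was 1.97 in CD1 and 2.02 in NOD for *Mucl2* and 1.76 and 1.29 for *Prol1*.

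Genes with a pattern like that of the summed members were ranked by Pearson's r of log2(CPM + 1) over 14 points, the empty droplets and 6 lineages of each library, among 8911 genes with at least 100 UMIs in empty droplets. The most alike were *Tpd52* (r 0.88), *Car6* (0.86), *Gm53236* (0.85), *Fxyd2* (0.84) and *Klk1* (0.84). The points of a library share its depth and its free RNA, so r is a description only. The NOD epithelial point rests on 9 barcodes and the CD1 B/plasma point on 10. Of the members themselves, *Mucl2* was closest to the sum (0.92), followed by *Mucl1* and *Crisp3* (both 0.85), and *Prol1* and *Scgb1b27* were at 0.49 and 0.47. Each member is part of the sum, so these values are partly fixed in advance. *Crisp3* made up 90.6% of the sum on NOD and 56.8% on CD1 epithelial barcodes.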

How the data were processed

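Per the file headers and the processing notes of the submitters, the authors deposited raw counts of UMIs made with Cell Ranger 8.0.0 on GRCm39. They cover each gene in every barcode, without a cell filter, scaling or correction. Seurat 5.0.1 and R 4.3.1 served their later analysis, which was not used here. The end of the transcript that the 10X kit reads is not given in the sources. Empty droplets had 10 to 100 UMIs and cell barcodes at least 500. Lineages were set by 6 marker lists, with at least 3 marker UMIs and 75% of them in 1 list. This rule left 2209 NOD and 1694 CD1 barcodes without a lineage, and no doublet caller was run.

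Counts were summed per library and set, and given with exact Poisson, conditional binomial (ratios) and Clopper-Pearson (shares) intervals at 95%. No test between the strains was possible, since each had a single library. Shares were also taken after thinning. The intervals were checked on simulated Poisson counts, the model they assume, so the check could not show how they hold for clumped counts. On myeloid barcodes the variance of the member UMIs per barcode was 322 times the mean in NOD and 611 times in CD1. The intervals are too narrow for such clumping. The text names all members, the 4 genes with the most empty-droplet UMIs of each of 6 comparison lists (2 where a list holds 2), the 5 genes most like the members, and the 5 highest and 5 lowest in empty droplets with at least 1000 UMIs. *Epcam*, *Bhlha15* and C1q counts, the ratio of *Prol1* to *Mucl1* and the split of B/plasma barcodes were added after values were seen. The members and lists were chosen with earlier results of these data known. The alternatives changed the UMI windows, the denominator and scaling, the weight of barcodes, the lineage rule and the members summed, and 6 of them were added after seeing the data. Sequences are from RefSeq on GRCm38.p6 and were matched by symbol, and shared stretches were counted as 50-base words in GENCODE transcripts. Python 3.11.15, numpy 2.4.6, scipy 1.17.1, pandas 2.3.3 and matplotlib 3.10.9 were used.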

Additional observations from a re-analysis of the deposited data

How the results depend on the processing

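The summed members stayed lower in NOD in empty droplets under all 12 alternatives tried. The log2 ratio was -4.20 as reported, -4.55 at 20 to 60 UMIs, -2.68 on barcodes between 100 and 500 UMIs, -4.26 without mitochondrial and hemoglobin genes, -4.15 with median-of-ratios scaling, -3.54 as UMIs per droplet and -4.39 without *Mucl2*. Scaled by the duct kallikreins it was -0.82, *Dcpp1* turned to 1.06, and 5 members in place of 9 were at least 2-fold lower. The kallikreins were themselves lower in NOD, and the share of all genes past 2-fold was not counted at this scaling. In non-epithelial barcodes the ratio was -1.43 as reported, -1.49 at a 90% share of marker UMIs, -1.53 with median-of-ratios scaling, -1.39 with equal weight per barcode, -0.01 without myeloid barcodes and -1.14 at 5000 to 10000 UMIs. With equal weight per barcode, the epithelial ratio turned to 0.09 and the endothelial ratio moved from -0.76 to -2.13. Genes past 2-fold in empty droplets numbered 3655 as reported, 1954 at a minimum of 100 UMIs and 11328 at 1 UMI. Of 55 alternative values for single members, 49 were lower in NOD, and of 36 for single lineages, 29. Leaving out barcodes shared by the libraries gave -4.21 in empty droplets and -1.43 in non-epithelial barcodes. No paired analysis was possible because each strain had 1 library. Depth limits *Smgc*, *Muc19*, *Aqp5* and *Bpifa2*, which had 1 to 16 UMIs in the NOD empty droplets.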
